A study of Homo sapiens with 12 samples.

Results

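Palbociclib alone was compared with control in NCI-H520 (H520), a long-established cell line grown from a human squamous carcinoma of the lung. The comparison takes 6 of the 12 poly(A) RNA-seq libraries of the series, 3 from control cells and 3 from cells given palbociclib at 1 µM for 72 h, and covers every gene with enough counts to be tested, 20612 of the 58174 gene IDs in the deposited table. The other 6 libraries, 3 of cells given the FGFR4 inhibitor BLU9931 at 1 µM and 3 of cells given both drugs for the same time, entered the fit to share its estimate of the spread. What was given to the control cells is not in the labels, nor is it stated that libraries of 1 group were grown as separate cultures. The p-values therefore measure only the spread between these libraries, which may be technical. The 6 libraries held between 24621422 and 35786607 counts.

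Palbociclib is an inhibitor of CDK4 and CDK6, the cyclin-dependent kinases of the early cell cycle. With D-type cyclins they phosphorylate the retinoblastoma protein RB1, which otherwise holds back the E2F transcription factors that drive the genes of DNA synthesis. A second layer of control, the DREAM complex with the RB1 relatives RBL1 and RBL2, holds back both those genes and the later genes of mitosis in resting cells. The drug is used against hormone receptor-positive breast cancer, and squamous lung cancers often carry gains of CCND1 or losses of CDK inhibitor genes.

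Markers of the labelled cell type were present only in part. Of 16 squamous and basal markers, 9 stayed under 1 TPM (the deposited abundance, scaled to transcript length and depth) in all 6 libraries, among them TP63, the master regulator of basal epithelium, which did not exceed 0.0723 TPM. Keratin genes KRT6B, KRT16 and KRT17 were listed at 0. The squamous lineage factor gene SOX2 was at 342 to 383 TPM in the control libraries and 428 to 443 TPM in the palbociclib libraries, and 5 of 5 general epithelial markers were expressed. Markers of other cell types were at or near 0, with PTPRC of leukocytes and DCN of fibroblasts listed at 0 in all 6 libraries.

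One library of each group stood apart. In control 1 and palbociclib 3, the deviation of a gene from the other libraries of its group followed the GC content of its transcript (Spearman's rho across genes of -0.66 and -0.73, a description over genes that share a library), against 0.48 to 0.60 for the other 4, which mirror them in part. Counts for gene lists are therefore given for all 12 libraries and, where they differ, for the fit without the 2 libraries, in which each of the compared groups keeps 2. The same holds for a named gene whose call differs. Leaving them out does not remove the link with GC content. The median log2 change ran from -0.15 in the fifth of genes lowest in GC to 0.20 in the highest. With all libraries it ran from -0.10 to 0.17. An adjustment for GC content was 1 of the alternatives, but the part of GC content in any single change was not tested.

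Between palbociclib and control, 4236 genes passed edgeR's quasi-likelihood test at an adjusted p under 0.05, which is 20.6% of the genes tested. Of these, 2065 were higher under palbociclib (10%) and 2171 lower (10.5%). Changes of at least 2-fold made up 1702 of the calls (8.26% of the genes tested), 1102 upward and 600 downward, and at least 8-fold 86 genes rose and 12 fell. With control 1 and palbociclib 3 left out, 6015 genes passed (29.2%), 2852 higher and 3163 lower. Of the 4236 calls, 3809 were also made there in the same direction (18.5% of the genes tested), 1815 of them higher (8.81%) and 1994 lower (9.67%), 427 were not made, and 0 turned direction. The libraries of the compared groups did not overlap in 6596 genes (32.0%). A fold change relates to the median gene, which lay at a log2 change of 0.01. With library totals in place of TMM scaling that median was 0.08, and the calls split into 2471 higher and 1793 lower.

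The share of genes called lower was larger at higher levels, from 1.96% in the quintile of genes with the lowest mean level to 19.9% in the highest. The share called higher was 6.65%, 13.9%, 13.7%, 8.44% and 7.42% from the lowest to the highest quintile. Long intergenic non-coding RNAs were called higher in 193 of 1260 cases (15.3%) and lower in 36 (2.86%), whereas protein-coding genes were called higher in 1450 of 14580 cases (9.95%) and lower in 1939 (13.3%). By transcript GC content, the share called higher ran from 6.06% in the lowest quintile to 12.2% in the fourth, and the share called lower from 14.4% in the second quintile to 4.82% in the highest. Without control 1 and palbociclib 3 both shares changed in 1 direction from quintile to quintile, from 7.45% to 21.9% for higher and from 21.7% to 8.77% for lower.

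**Figure D1:**
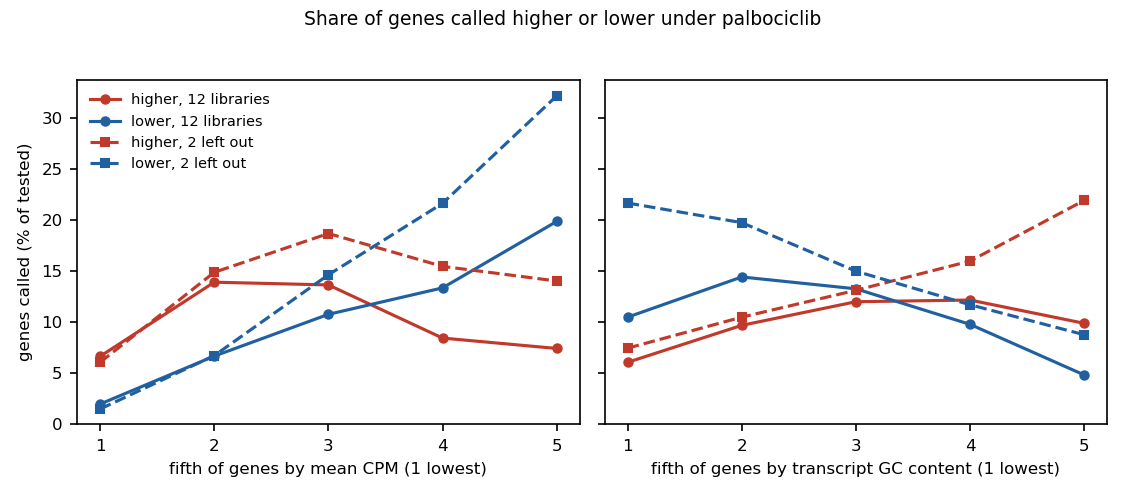
Share of tested genes called higher (red) or lower (blue) under palbociclib, in percent, by quintiles of mean CPM (left) and of transcript GC content (right). Circles and solid lines use the 12 libraries and squares and dashed lines leave out control 1 and palbociclib 3. In the highest quintile by level, 19.9% of genes were called lower, against 1.96% in the lowest.

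The genes were read in groups by function, shown in the plot of log2 changes by gene list. The medians of the DNA replication, chromatin assembly and mitosis lists lay furthest to the left, those of ribosome production and protein folding less far, and those of the quiescence and interferon genes to the right. Each count of list members from the fit of 12 libraries is to be read against 10% called higher and 10.5% called lower among the genes tested. Counts without the 2 libraries are to be read against 13.8% and 15.3%, and those against BLU9931 against 8.67% and 8.37%. In the highest quintile by mean level the share called lower was 19.9%, and 32.2% without the 2 libraries. In the 2 lowest quintiles by GC content it was 10.5% and 14.4%, and 21.7% and 19.8% without the 2 libraries. Median transcript GC content was 48.4% over all genes tested. It was 41.2% in the centromere and kinetochore list, 43.2% in the spindle list and 44.3% in the interferon list. The median log2 change over all genes tested was 0.01 against control and 0.02 against BLU9931. A sum over cells cannot tell fewer cells in a phase of the cell cycle from less RNA per cell.

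**Figure D2:**
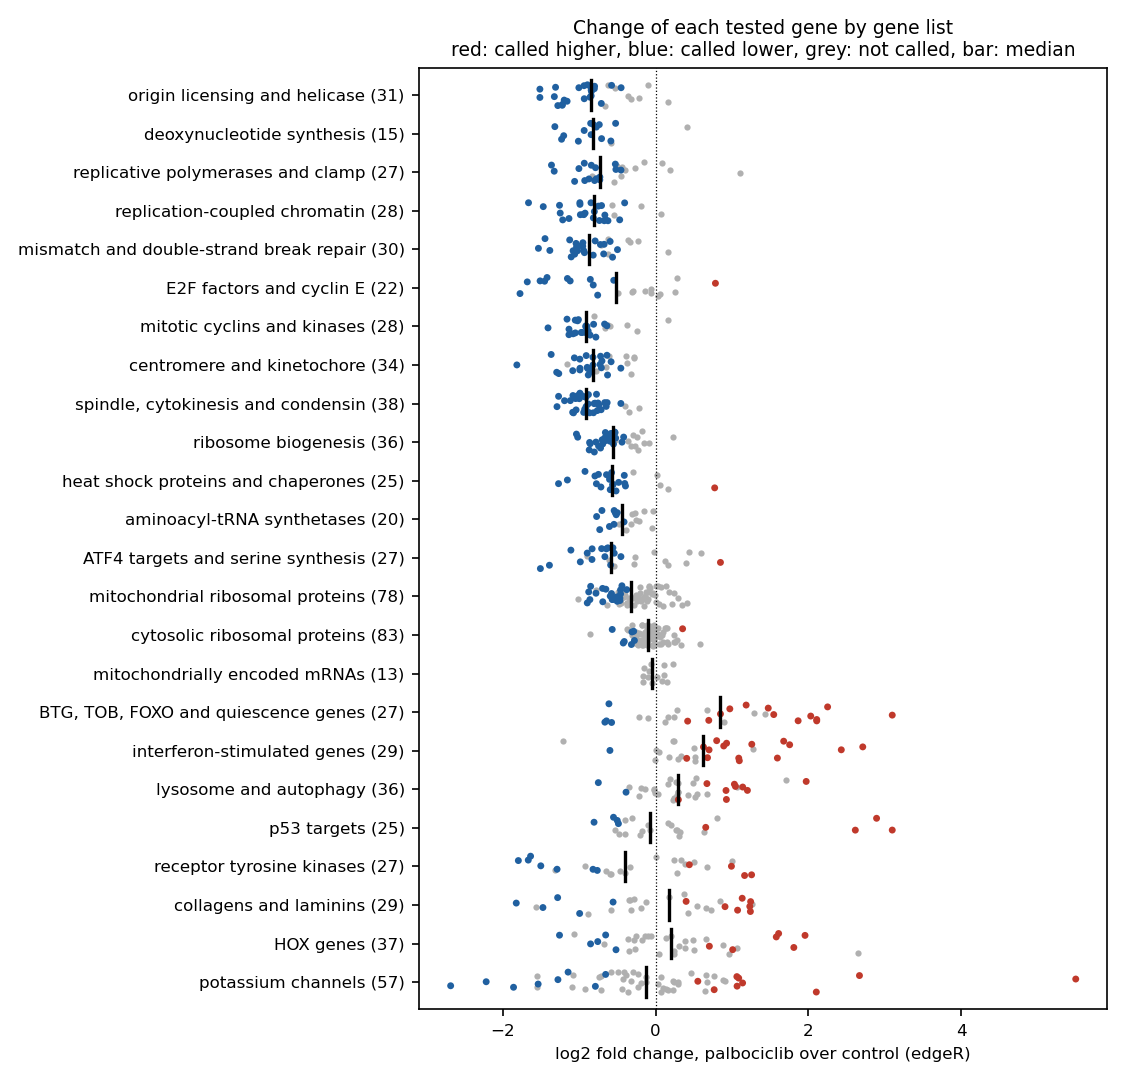
Log2 fold change of palbociclib over control (horizontal axis) for each tested member of 24 gene lists, with the number of tested members in parentheses. Red points were called higher, blue points lower and grey points did not pass the test. Black bars are list medians, which lie between -0.91 for the mitotic lists and 0.85 for the BTG, TOB, FOXO and quiescence genes.

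Genes of the drug's targets and of their partners moved in both directions. Among 14 tested genes of CDK4, CDK6, D cyclins, their inhibitors and the RB1 family, 1 was called higher and 3 lower, with a median log2 change of -0.18 (3 higher and 3 lower without the 2 libraries). CCND1, which encodes cyclin D1, held 282, 276 and 276 CPM (counts scaled to a common library size with TMM factors) in control libraries 1, 2 and 3 and 452, 471 and 487 CPM in palbociclib libraries 1, 2 and 3. The groups did not overlap, and the rise was 1.69-fold (adjusted p = 6.8e-05). CCND3, which encodes cyclin D3, went the other way, from a mean of 23.8 CPM in control to 14.5 CPM under palbociclib, without overlap. Its log2 change was -0.72 ± 0.22 (adjusted p = 0.038). The CCND3 call ended under 13 of 20 alternatives, among them the fit without the 2 libraries (-0.64, adjusted p = 0.0979). CDK4 held 66.9 to 71.6 CPM in control and 63.8 to 81.6 CPM under palbociclib, overlapping ranges with an estimated log2 change of 0.04 ± 0.15 (SE). CDK6 held 367, 269 and 269 CPM in control libraries 1 to 3 and 347, 378 and 533 CPM in palbociclib libraries 1 to 3, groups that overlapped through control 1 and palbociclib 1. Its log2 change of 0.48 ± 0.16 did not pass (adjusted p = 0.0577), but CDK6 was called higher under 6 of 20 alternatives, among them the fit without the 2 libraries (0.43, adjusted p = 0.00111). RB1 had a log2 change of -0.22 ± 0.20 and did not pass, and was called lower in that fit (-0.31, adjusted p = 0.0122).

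CDKN2C encodes the CDK4 and CDK6 inhibitor p18INK4C and is itself a known E2F target. Its levels were 8.90, 9.86 and 9.63 CPM in control libraries 1 to 3 and 3.79, 4.17 and 3.92 CPM in palbociclib libraries 1 to 3. It fell by 1.26 ± 0.25 on the log2 scale (adjusted p = 0.0049). RBL1, the RB1 relative that is replaced by RBL2 in resting cells, fell by 1.01 ± 0.14 (adjusted p = 0.000602), whereas RBL2 itself did not pass the test and was called higher without the 2 libraries (0.26, adjusted p = 0.0161). The mean of the CDK inhibitor gene CDKN1A was 2.98 CPM in control and 5.21 CPM under palbociclib (adjusted p = 0.0509). CCND2 had too few counts to be tested.

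Some E2F factor genes fell and others did not pass the test. Of 22 genes of the E2F family, cyclin E and their cofactors, 11 were called lower and 1 higher (median -0.52, with 13 lower and 1 higher without control 1 and palbociclib 3). The factors that are themselves made in S phase fell, with E2F2 at -1.42 ± 0.15, E2F7 at -1.45 ± 0.12 and E2F8 at -1.78 ± 0.22 (log2 change, SE). E2F2, an activating member, went from 29.1, 35.3 and 39.3 CPM in control libraries 1 to 3 to 14.2, 13.9 and 10.6 CPM in palbociclib libraries 1 to 3, with no overlap. E2F8, a repressing member, went from 18.5, 16.8 and 14.0 CPM to 4.02, 3.93 and 6.43 CPM in the same order. E2F1 went from 53.7, 88.5 and 89.8 CPM to 49.3, 49.5 and 29.4 CPM, a log2 change of -0.86 ± 0.23 (adjusted p = 0.0207). The E2F1 call ended without control 2, without control 3 and in the 6 compared libraries alone (edgeR adjusted p = 0.0664, 0.0715 and 0.125). E2F3, E2F4, E2F5 and E2F6 had log2 changes from -0.29 to 0.04 and did not pass.

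Cyclin E genes differed from each other in the same way. CCNE2 fell by 0.82 ± 0.23 on the log2 scale, while CCNE1 was at 21.2 to 24.1 CPM in control and 23.2 to 25.1 CPM under palbociclib and did not pass. The kinase gene CDK2, the partner of cyclin E, went from 63.5, 74.5 and 73.3 CPM to 31.9, 29.6 and 35.8 CPM in libraries 1 to 3 of each group (adjusted p = 0.000261), though not past the threshold on the deposited TPM values (limma adjusted p = 0.129). CDC25A, which activates it, fell by 1.16 ± 0.12, and TFDP2, an E2F dimerization partner, was the 1 member that rose (0.78 ± 0.09). The CCNE2 call ended without control 1, palbociclib 1 or palbociclib 2 (edgeR adjusted p = 0.0907, 0.0781 and 0.0841).

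Genes that build and fire replication origins fell together. Of 31 licensing and helicase genes, 23 were called lower and 0 higher, with a median log2 change of -0.84 (27 lower without control 1 and palbociclib 3). MCM6, a subunit of the replicative helicase, held 192, 158 and 150 CPM in control libraries 1 to 3 and 81.3, 83.5 and 96.5 CPM in palbociclib libraries 1 to 3. Every palbociclib library lay below every control library for MCM6 (adjusted p = 0.000274). GINS2, another helicase subunit, fell by 1.52 ± 0.09. The origin-firing factor gene TICRR fell by 1.22 ± 0.09, MCM4 by 1.22 ± 0.11 and MCM10 by 1.52 ± 0.12 (log2, SE).

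The supply of deoxynucleotides and the replication fork followed. Of 15 genes of deoxynucleotide synthesis, 13 were called lower and 0 higher (median -0.82, with 14 lower and 1 higher without the 2 libraries). TYMS, which makes thymidylate, went from 72.4, 74.8 and 76.6 CPM in control libraries 1 to 3 to 27.6, 32.5 and 29.5 CPM in palbociclib libraries 1 to 3, a 2.50-fold fall (adjusted p = 3.04e-05). RRM2, the S-phase subunit of ribonucleotide reductase, fell by 0.94 ± 0.13 on the log2 scale, while RRM2B, the subunit that serves resting cells, had a log2 change of 0.41 and did not pass (0.32, adjusted p = 0.0289 without the 2 libraries).

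Of 27 genes of the replicative polymerases, the clamp and its loader, 16 were called lower and 0 higher (median -0.73, with 23 lower and 1 higher without the 2 libraries). PCNA, the sliding clamp, went from 139, 117 and 115 CPM to 62.8, 57.4 and 57.6 CPM in libraries 1 to 3 of each group (adjusted p = 6.83e-05). POLE2, a subunit of the leading-strand polymerase, fell by 1.33 ± 0.15 and the primase gene PRIM1 by 1.36 (log2). The accessory subunit genes POLD4 and POLE4 had log2 changes of 1.11 and 0.19 and did not pass, though POLD4 was called higher without the 2 libraries (1.42, adjusted p = 0.0196).

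Chromatin and repair genes that accompany replication fell as well. Of 28 genes of replication-coupled chromatin, 24 were called lower and 0 higher (median -0.81, with 25 lower without the 2 libraries), among them the DNA-bending protein gene HMGB2, which went from 133, 111 and 157 CPM to 40.0, 58.3 and 46.4 CPM (adjusted p = 0.000422). Loss of LMNB1, the lamin B1 gene, is a known mark of cells that have stopped dividing for long, and it fell by 0.99 ± 0.17, with EZH2, the Polycomb methyltransferase gene, also at -0.99 ± 0.13. LBR, the lamin B receptor gene, fell by 1.26 ± 0.13 and the heterochromatin protein gene CBX5 by 1.22 ± 0.14. Of 30 genes of mismatch and double-strand break repair, 23 were called lower and 0 higher (median -0.87, with 27 lower without the 2 libraries), with RAD54L, a DNA translocase gene of homologous recombination, at -1.08 ± 0.12.

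The promoters of these genes were searched for the motif of E2F factors. Promoters here run from 250 bases before to 50 bases after the first start that RefSeq lists for a gene (GRCh38.p14), and 11837 of the 20612 tested genes were matched. The E2F motif was searched as TTTNNCGC on both strands and was found in 9.93% of the matched promoters, in 14.4% of those of genes called lower and in 6.11% of those of genes called higher. It was in 13 of 26 promoters of licensing and helicase genes and in 11 of 22 of the polymerase and clamp genes, but in 6 of 22 of the chromatin genes, 6 of 24 of the repair genes and 2 of 13 of the deoxynucleotide genes. The 90 bases before the start of 4 genes of these lists are printed to show where the motif lies, with matches in capitals, for GINS2 (chr16:85688955-85689044, minus strand), MCM6 (chr2:135876444-135876533, minus), POLE2 (chr14:49688215-49688304, minus) and TYMS (chr18:657563-657652, plus). In MCM6 a pair of matches overlap.
GINS2: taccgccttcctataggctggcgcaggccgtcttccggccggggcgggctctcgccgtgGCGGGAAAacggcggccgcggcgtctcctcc
MCM6: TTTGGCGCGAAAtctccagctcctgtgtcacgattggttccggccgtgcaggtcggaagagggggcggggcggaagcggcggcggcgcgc
POLE2: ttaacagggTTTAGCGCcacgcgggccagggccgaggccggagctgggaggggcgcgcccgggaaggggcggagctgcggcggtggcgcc
TYMS: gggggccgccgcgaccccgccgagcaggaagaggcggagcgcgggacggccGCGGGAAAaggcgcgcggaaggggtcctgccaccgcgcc

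Mitotic genes were lower too. Of 28 mitotic cyclins and kinases, 21 were called lower and 0 higher (median -0.91, with 25 lower without the 2 libraries). Of 38 genes of the spindle, cytokinesis and condensin, 35 were called lower and 0 higher (median -0.91, with 37 lower without control 1 and palbociclib 3), and of 34 genes of the centromere and kinetochore 25 were called lower and 0 higher (median -0.82, with 27 lower without the 2 libraries).

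CCNB2, which encodes cyclin B2, held 180, 149 and 157 CPM in control libraries 1 to 3 and 84.4, 85.5 and 87.7 CPM in palbociclib libraries 1 to 3. PLK1, a kinase of mitotic entry, went from 145, 160 and 161 CPM to 86.0, 80.9 and 57.7 CPM, and CDC20, the activator of the anaphase-promoting complex, from 290, 387 and 379 CPM to 212, 205 and 144 CPM. For all 3 genes the groups did not overlap, with adjusted p values of 0.000101, 0.000312 and 0.00153. KIF20A, a kinesin of cytokinesis, fell by 1.29 ± 0.11, UBE2C, a ubiquitin-conjugating enzyme of anaphase, by 1.14 ± 0.11, and PTTG1, which encodes securin, by 1.13 ± 0.11 (log2, SE). TUBA1B, an alpha-tubulin gene, went from 1288, 1535 and 939 CPM to 394, 417 and 289 CPM (adjusted p = 0.00204).

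The proliferation marker MKI67 held 1079, 964 and 1082 CPM in the control libraries and 311, 358 and 279 CPM in the palbociclib libraries, a 3.297-fold fall that left it well above 0. TOP2A, the topoisomerase of dividing cells, went from 851, 586 and 592 CPM to 290, 313 and 417 CPM (log2 change -0.99 ± 0.16, adjusted p = 0.0013).

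The motif that the DREAM complex reads at mitotic genes, the cell cycle genes homology region (CHR), was searched as TTTGAA on both strands. It was found in 9.89% of all matched promoters, in 12.2% of those of genes called lower and in 10.4% of those of genes called higher. By list it was in 28 of 35 promoters of spindle, cytokinesis and condensin genes, in 10 of 20 of mitotic cyclins and kinases and in 12 of 28 of centromere and kinetochore genes. Among polymerase and clamp genes 0 of 22 held it. The 90 bases before the start are printed for CCNB2 (chr15:59105056-59105145, plus strand), PLK1 (chr16:23678799-23678888, plus) and CDC20 (chr1:43358891-43358980, plus), whose falls are given above. In CCNB2 and PLK1 the match starts 29 bases before the start site. A match describes the letters and does not show that a factor binds there.
CCNB2: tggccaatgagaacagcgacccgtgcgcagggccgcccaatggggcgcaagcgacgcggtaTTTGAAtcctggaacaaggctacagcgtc
PLK1: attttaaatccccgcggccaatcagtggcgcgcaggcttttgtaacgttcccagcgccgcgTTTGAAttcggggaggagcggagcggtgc
CDC20: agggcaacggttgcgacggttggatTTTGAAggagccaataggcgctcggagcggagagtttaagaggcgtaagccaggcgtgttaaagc

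**Figure D3:**
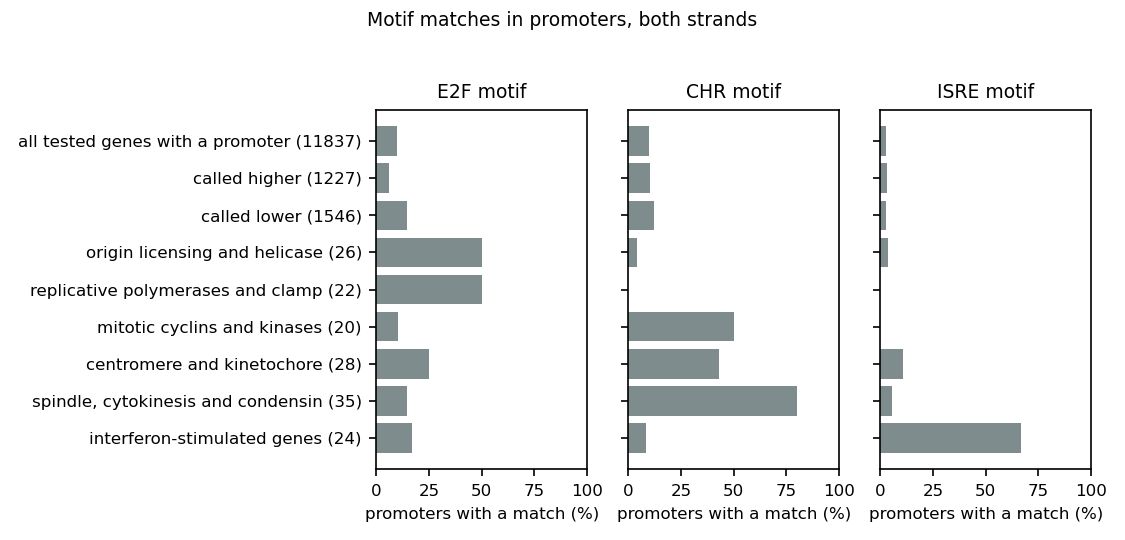
Share of promoters, in percent, with at least 1 match of the E2F, CHR or ISRE motif on either strand, for all tested genes with a promoter, the genes called higher or lower under palbociclib, and 6 gene lists (number of promoters in parentheses). The E2F motif is most frequent in the licensing and polymerase lists (13 of 26 and 11 of 22), the CHR in the spindle list (80.0%) and the ISRE in the interferon list (66.7%).

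**Figure D4:**
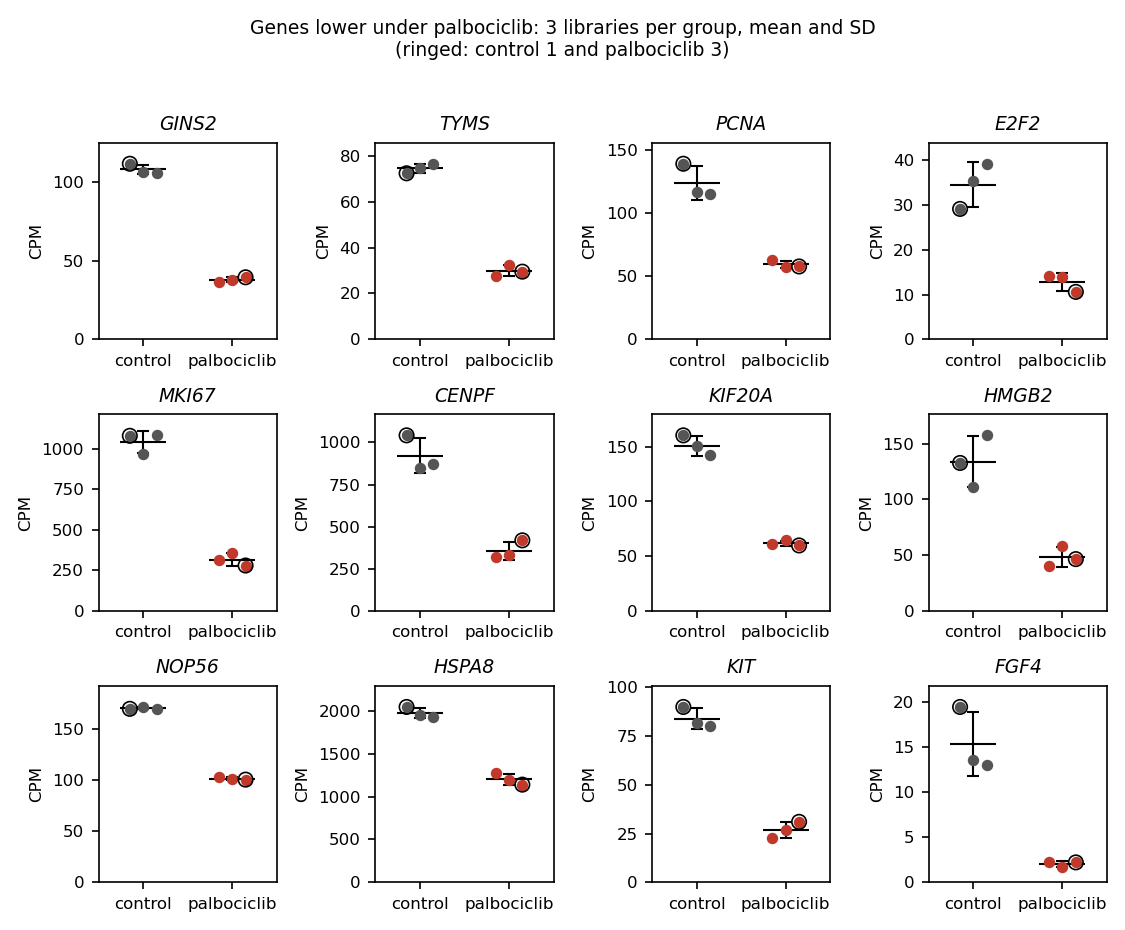
Levels of 12 genes that were lower under palbociclib, in CPM on axes that start at 0. Points are the 3 libraries of each group in the order 1, 2 and 3, horizontal bars with whiskers are the mean and SD, and rings mark control 1 and palbociclib 3. In each of the 12 panels the groups do not overlap, as in 32.0% of all genes tested. For genes named by the size of their change, such as FGF4, this was a condition of the choice.

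Genes of cell growth and protein folding fell too, by less. Of 36 ribosome biogenesis genes, 25 were called lower and 0 higher (median -0.56, with 26 lower without the 2 libraries). NOP56, a core protein of the RNA-guided methylation machinery, held 169, 171 and 169 CPM in control and 103, 100 and 100.3 CPM under palbociclib. NCL, the nucleolin gene, fell by 0.87 ± 0.10 and NPM1, the nucleophosmin gene, by 0.86 ± 0.17 (log2, SE). The proteins of the finished ribosome did not follow: of 83 cytosolic ribosomal protein genes, 7 were called lower and 1 higher (median -0.10, with 11 lower and 2 higher without the 2 libraries). Mitochondrial ribosomal protein genes stood between them, with 21 of 78 called lower and 0 higher (median -0.32, with 30 lower and 1 higher without the 2 libraries), and the 13 mRNAs encoded in the mitochondrial genome had 0 calls and a median of -0.05 (0 higher and 1 lower without control 1 and palbociclib 3).

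Of 25 heat shock protein and chaperone genes, 20 were called lower and 1 higher (median -0.58, with 21 lower and 1 higher without the 2 libraries). They covered the cytosolic HSP70 and HSP90 families, the mitochondrial chaperonin and the TRiC chaperonin that folds actin and tubulin. HSPA8, the constitutive HSP70, went from 2044, 1948 and 1931 CPM to 1272, 1194 and 1139 CPM (adjusted p = 7.19e-05), and TCP1, a TRiC subunit, from 363, 313 and 318 CPM to 188, 181 and 203 CPM (adjusted p = 0.000115). The inducible HSP70 genes HSPA1A and HSPA1B fell by 1.16 ± 0.17 and 1.27 ± 0.20, but their sequences are nearly identical and reads may be split between them. DNAJB2 was the 1 member that rose (0.77 ± 0.20), a call that ended without control 1 (edgeR adjusted p = 0.0518), without palbociclib 2 (0.0712) and in the 6 compared libraries alone (0.0936). HSF1, the transcription factor of the heat shock response, had a log2 change of 0.06 and did not pass.

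Amino acid supply moved with them. Of 20 cytosolic aminoacyl-tRNA synthetase genes, 10 were called lower and 0 higher (median -0.45, with 13 lower without the 2 libraries), and of 27 ATF4 targets and serine synthesis genes 15 were called lower and 1 higher (median -0.59, with 16 lower and 2 higher without the 2 libraries). The amino acid exchanger gene SLC1A4 went from 55.3, 73.2 and 67.5 CPM to 28.3, 16.4 and 24.1 CPM (adjusted p = 0.00128). PSAT1 and PHGDH, which make serine, fell by 1.11 ± 0.14 and 0.83 ± 0.13. By contrast 4 of 20 genes of the unfolded protein response were called lower and 0 higher (median -0.12, with 6 lower without the 2 libraries), and of 37 proteasome subunit genes 8 were called lower and 0 higher (median -0.30, with 19 lower and 1 higher without control 1 and palbociclib 3).

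In glycolysis the changes were uneven. Of 33 glycolysis and hypoxia genes, 6 were called lower and 4 higher (median -0.20, with 11 lower and 5 higher without the 2 libraries). LDHA, which makes lactate from pyruvate, held 488, 565 and 575 CPM in control and 136, 213 and 169 CPM under palbociclib, a 3.14-fold fall (adjusted p = 0.00022), and ENO1 fell by 0.79 ± 0.08. The brain-type aldolase gene ALDOC rose by 0.80 ± 0.16, and the glucose transporter gene SLC2A3 by 1.46 (log2). The ALDOC call ended in the 6 compared libraries alone (edgeR adjusted p = 0.0597).

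Genes that mark or hold the resting state rose. Of 27 BTG, TOB, FOXO and quiescence genes, 13 were called higher and 4 lower, with a median log2 change of 0.85 (14 higher and 3 lower without the 2 libraries). BTG2, an antiproliferative adaptor of mRNA deadenylation, held 21.3, 25.9 and 25.0 CPM in control libraries 1 to 3 and 209, 215 and 195 CPM in palbociclib libraries 1 to 3. The libraries of each group lay close together, and the rise was 8.56-fold (adjusted p = 6.27e-08). SESN3, a FOXO target that restrains mTORC1, rose from 79.8, 51.5 and 51.9 CPM to 237, 248 and 386 CPM.

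MXD4, which competes with MYC for its partner MAX, rose from 15.8, 25.7 and 27.7 CPM to 118, 106 and 59.0 CPM (adjusted p = 0.000292). DYRK1B, a kinase that stabilizes the resting state by destabilizing cyclin D1, rose from 7.52, 10.6 and 10.99 CPM to 54.2, 47.7 and 23.5 CPM (adjusted p = 0.000326). In both genes control 1 was the lowest control and palbociclib 3 the lowest treated library, and the log2 change was 2.06 and 2.24 without them, against 2.03 and 2.11 with them. FOXO4 rose by 1.87 ± 0.41, PIK3IP1, an inhibitor of PI3K, by 1.55 ± 0.23 and YPEL5 by 2.11 ± 0.32, while FOXO1 and FOXO3 had log2 changes of -0.22 and 0.24 and did not pass.

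The p53 target list gave no common direction, with 4 of 25 called higher, 4 lower and a median of -0.07 (4 higher and 6 lower without the 2 libraries). The 4 that rose were BTG2, TP53INP1, BBC3 and TP53I3. TP53INP1, a regulator of autophagy and cell death, held 13.6, 7.65 and 8.81 CPM in control and 60.2, 66.8 and 95.7 CPM under palbociclib. MDM2, ZMAT3, SESN1 and FDXR, which respond to p53 in most cell types, had log2 changes from -0.41 to 0.63 and did not pass. POLH, a translesion polymerase, and AEN, a nuclease, fell by 0.81 ± 0.13 and 0.55 ± 0.11. The AEN call ended in the 6 compared libraries alone (edgeR adjusted p = 0.0852).

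Members of the BCL2 family moved in both directions. BBC3, the proapoptotic protein PUMA, held 1.01, 1.04 and 1.10 CPM in the control libraries and 8.65, 6.88 and 3.80 CPM in the palbociclib libraries (adjusted p = 0.000428). PMAIP1, the proapoptotic protein NOXA, fell from 15.7, 9.38 and 11.02 CPM to 3.15, 2.75 and 4.85 CPM (adjusted p = 0.00108). The survival gene BCL2 fell by 1.297 ± 0.27, whereas MCL1 and BCL2L1 had log2 changes of 0.18 and 0.27 and did not pass, though BCL2L1 was called higher without the 2 libraries (0.31, adjusted p = 0.00935). Of 29 genes of the BCL2 family and the caspases, 5 were called higher and 2 lower (median 0.20, with 7 higher and 2 lower without the 2 libraries).

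Of 36 lysosome and autophagy genes, 9 were called higher and 2 lower (median 0.29, with 13 higher and 3 lower without control 1 and palbociclib 3). PSAP, the precursor of the saposins, held 377, 538 and 510 CPM in control and 1021, 993 and 694 CPM under palbociclib (adjusted p = 0.00193). WIPI1, which marks forming autophagosomes, rose by 1.03 ± 0.12 and the lysosomal sterol carrier gene NPC2 by 0.67 ± 0.11.

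About as many interferon-stimulated genes rose as did not pass. Of 29 tested, 15 were called higher and 1 lower (median 0.63, with 16 higher and 2 lower without control 1 and palbociclib 3). IFIT2, an antiviral RNA-binding protein gene, held 0.372, 0.415 and 0.566 CPM in control and 2.25, 2.40 and 2.79 CPM under palbociclib (adjusted p = 0.00014). IFIT3 went from 0.893, 0.450 and 0.708 CPM to 2.15, 1.81 and 2.99 CPM, and ISG20, an RNA exonuclease gene, from 4.50, 5.33 and 5.24 CPM to 15.3, 15.4 and 14.9 CPM. For these 3 genes no palbociclib library reached down to a control library.

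PARP9 and DTX3L, partners in one ubiquitin ligase complex, rose by 1.26 ± 0.13 and 0.93 (log2), and the interferon signal transducer STAT2 by 0.89. SLFN5, an interferon-inducible gene outside the list, rose from 121, 78.4 and 81.9 CPM to 416, 465 and 644 CPM. OAS3 fell by 0.60 ± 0.13, a call that was not made on the deposited TPM values (limma adjusted p = 0.051) or in the 6 compared libraries alone (edgeR adjusted p = 0.0909). In the same list MX1, IFIH1, IRF7 and IRF9 had log2 changes from -0.01 to 0.30 and did not pass. Among 17 genes of MHC class I presentation, 4 were called higher and 1 lower (median 0.20, with 5 higher and 2 lower without the 2 libraries). HLA-C rose by 1.32 ± 0.24 and HLA-E by 0.65 ± 0.14, with reads possibly shared among these similar genes. TAP2, a peptide transporter subunit, fell by 0.70 ± 0.12, and B2M was at -0.02 and did not pass. The HLA-C call ended with the GC adjustment (adjusted p = 0.0679). The HLA-E and TAP2 calls ended in the 6 compared libraries alone (edgeR adjusted p = 0.0773 and 0.0524).

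The interferon-stimulated response element (ISRE) was searched on both strands as GAAA, any 2 bases and GAAA again. It was in 2.77% of all matched promoters, in 3.34% of those of genes called higher, in 16 of 24 promoters of the interferon-stimulated genes and in 7 of 13 of the MHC class I genes. The 90 bases before the start are printed for IFI44 (chr1:78649699-78649788, plus strand), which rose from 0.298, 0 and 0.283 CPM to 1.17, 1.26 and 1.495 CPM, and for ISG20 (chr15:88638926-88639015, plus). The IFI44 call ended in the 6 compared libraries alone (edgeR adjusted p = 0.0568).
IFI44: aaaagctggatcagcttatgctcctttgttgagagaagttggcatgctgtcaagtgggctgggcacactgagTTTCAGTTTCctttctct
ISG20: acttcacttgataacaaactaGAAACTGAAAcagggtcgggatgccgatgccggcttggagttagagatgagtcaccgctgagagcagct

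**Figure D5:**
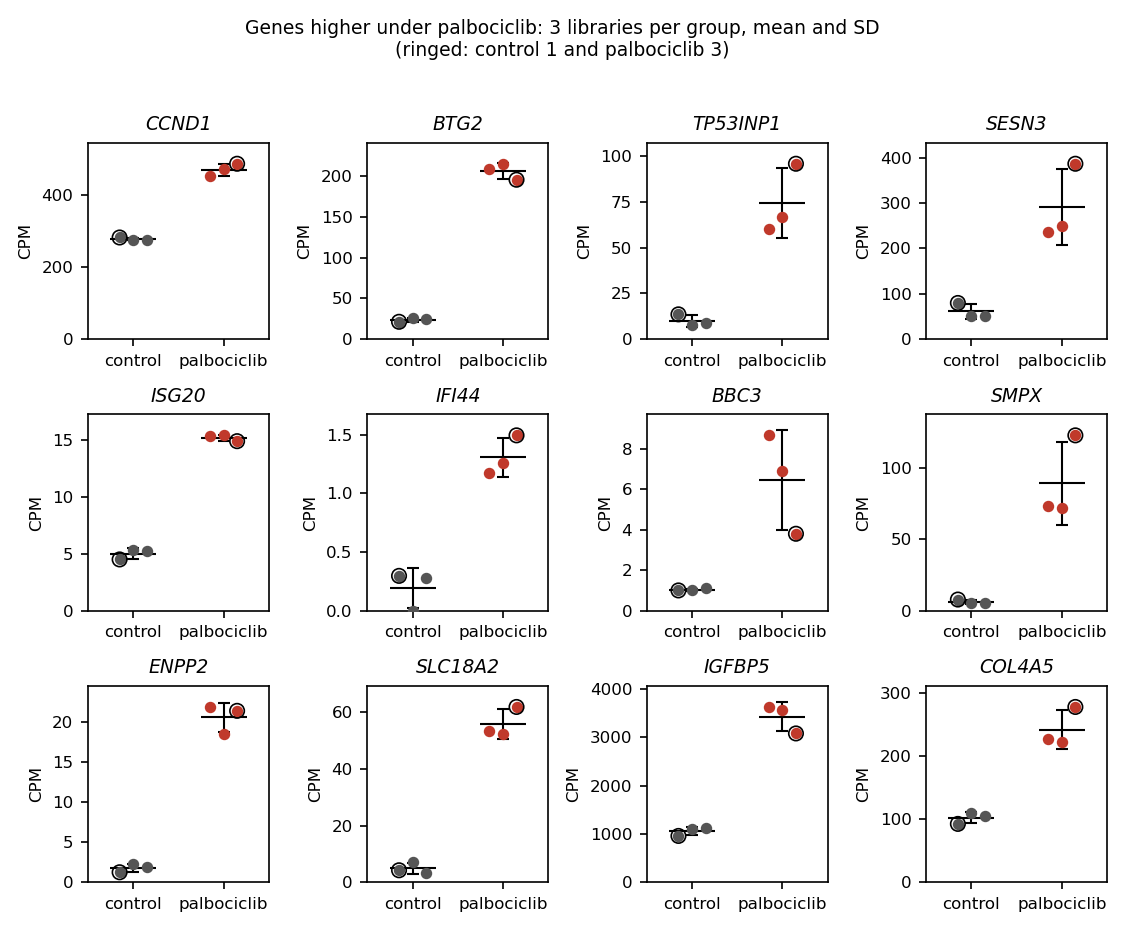
Levels of 12 genes that were higher under palbociclib, in CPM on axes that start at 0. Points are the 3 libraries of each group in the order 1, 2 and 3, horizontal bars with whiskers are the mean and SD, and rings mark control 1 and palbociclib 3. In each of the 12 panels the groups do not overlap, as in 32.0% of all genes tested, and BTG2 rises 8.56-fold. For the genes named by the size of their change, such as BTG2 and SMPX, this was a condition of the choice.

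Growth factor receptor genes changed in both directions. Of 27 receptor tyrosine kinase genes, 7 were called lower and 4 higher (median -0.40, with 10 lower and 8 higher without the 2 libraries). KIT, the stem cell factor receptor, went from 90.0, 81.7 and 80.2 CPM to 23.0, 26.9 and 31.1 CPM, a 3.11-fold fall (adjusted p = 1.28e-05). IGF1R, the receptor of insulin-like growth factors, fell from 6.29, 5.61 and 4.90 CPM to 1.34, 1.97 and 1.98 CPM (adjusted p = 0.000354). In the ERBB family ERBB3 fell by 1.29 ± 0.14 and EGFR by 0.82 ± 0.19, ERBB4 rose by 1.26 ± 0.21, and ERBB2 had a log2 change of 0.67 and did not pass (0.69, adjusted p = 0.00427 without the 2 libraries). The EGFR call was not made on the deposited TPM values (limma adjusted p = 0.452).

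The FGF ligands changed one by one. FGF4 went from 19.5, 13.5 and 13.1 CPM to 2.31, 1.69 and 2.22 CPM, a 7.37-fold fall and the largest among the protein-coding genes that the naming rule covers. FGF2 fell from 28.7, 19.5 and 17.0 CPM to 6.54, 8.85 and 11.5 CPM (adjusted p = 0.00267), and the co-receptor gene KL rose by 1.00 ± 0.17. FGF3 and FGF19, which lie near FGF4 and CCND1 on chromosome 11, had log2 changes of 0.10 and -0.33 and did not pass, though FGF19 was called lower without the 2 libraries (-0.30, adjusted p = 0.0276). Of 17 FGF ligands and co-receptors, 3 were called higher and 3 lower (3 and 4 without the 2 libraries).

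Among 23 genes of ERK output and feedback, 4 were called higher and 1 lower (median -0.03, with 5 higher and 2 lower without the 2 libraries). SPRY4, an inhibitor of receptor signalling, rose by 0.81 ± 0.12, and PHLDA1 from 66.2, 88.4 and 99.0 CPM to 240, 333 and 411 CPM. The PHLDA1 call ended without control 1 and palbociclib 3 (adjusted p = 0.0756). Immediate early genes and ETS factors of the same list, among them EGR1, ETV4, ETV5 and SPRY2, had log2 changes from -0.24 to 0.28 and did not pass, though ETV5 was called higher without the 2 libraries (0.28, adjusted p = 0.0377).

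Of the lipid genes, ENPP2 had the largest rise. It encodes autotaxin, which makes lysophosphatidic acid, and went from 1.27, 2.28 and 1.87 CPM to 21.9, 18.5 and 21.4 CPM (adjusted p = 3.75e-06). LPAR1 and LPAR3, receptors of that lipid picked after their values were seen, fell from 4.36, 7.09 and 5.38 CPM to 2.72, 2.20 and 2.95 CPM and from 4.17, 3.25 and 3.68 CPM to 0.771, 1.10 and 1.45 CPM. The receptor genes LPAR2, LPAR5 and LPAR6 had log2 changes of 0.38, 0.85 and 0.70 and did not pass. Lipoprotein lipase, LPL, fell by 2.15 ± 0.18 and the desaturase gene SCD by 0.67 ± 0.07. Of 34 genes of fatty acid and lipid handling, 9 were called lower and 5 higher (median -0.12, with 13 lower and 7 higher without the 2 libraries).

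Ion transport genes held some of the largest rises. Of 25 proton, chloride and bicarbonate transporter genes, 7 were called higher and 4 lower (median 0.17, with 7 higher and 5 lower without the 2 libraries). The sodium-proton exchanger gene SLC9A4, known from gastric mucosa, rose from 4.21, 3.18 and 4.45 CPM to 37.8, 40.4 and 49.8 CPM (adjusted p = 7e-07). SLC26A9, an epithelial chloride transporter gene, rose from 2.72, 3.39 and 3.88 CPM to 33.2, 29.5 and 24.7 CPM (adjusted p = 2.18e-06). The chloride channel gene ANO1 and the carbonic anhydrase gene CA2 fell by 1.76 ± 0.17 and 1.57 ± 0.15. Among 57 potassium channel genes 9 were called higher and 8 lower (12 and 9 without the 2 libraries), with KCNN4 at 2.67 ± 0.35 and KCNQ3 at -2.22 ± 0.40.

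Lineage genes changed without a direction common to the lists. Of 11 tested squamous and basal identity genes 1 was called higher and 1 lower (2 and 3 without the 2 libraries). In the fit of 12 libraries these were KRT15, a keratin of basal stem cells, which rose from 3.16, 4.95 and 4.53 CPM to 16.3, 12.3 and 12.5 CPM, and the desmosomal cadherin gene DSC3, which fell by 0.80 ± 0.17. Of 9 tested squamous differentiation genes, 3 were called higher and 0 lower (median 0.66, with 2 higher and 0 lower without the 2 libraries). Log2 changes in that list were below 0 in 4 genes and above 0 in 5. Of 15 tested neuroendocrine and vesicle genes, 4 were called higher and 3 lower (median 0.17).

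The vesicular monoamine transporter gene SLC18A2 rose from 4.28, 7.27 and 3.43 CPM to 53.4, 52.4 and 61.8 CPM (adjusted p = 8.2e-06). The granin gene CHGB rose by 0.91 ± 0.08 on the log2 scale. NCAM1, an adhesion molecule used as a neuroendocrine marker, fell from 47.8, 39.8 and 51.7 CPM to 11.3, 11.1 and 17.98 CPM (adjusted p = 0.000576). INSM1 and CHGA had log2 changes of 0.24 and -0.73 and did not pass. The summed level of the 5 neuroendocrine markers was 16.9 to 20.8 TPM in control and 20.1 to 28.5 TPM under palbociclib.

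Cell adhesion and matrix genes held large single changes. FAT1, a giant protocadherin gene, fell from 215, 246 and 250.1 CPM to 55.8, 62.3 and 58.1 CPM, a 4.03-fold fall (adjusted p = 2.18e-06). CDH11, a mesenchymal cadherin gene, fell from 18.9, 13.5 and 12.5 CPM to 3.55, 3.86 and 3.35 CPM, and E-cadherin, CDH1, rose by 0.87 ± 0.15. CEACAM1, an adhesion molecule gene of epithelia and immune cells, rose from 2.83, 2.18 and 2.07 CPM to 15.3, 14.7 and 18.9 CPM (adjusted p = 3.75e-06). MMP2, a matrix metalloproteinase gene, rose 4.01-fold, from 30.5, 39.7 and 25.6 CPM to 156, 115 and 112 CPM. In the mesenchymal list 5 of 17 were called higher and 1 lower (3 and 2 without the 2 libraries), and the inducers ZEB1, SNAI1, SNAI2 and TWIST1 did not pass.

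The collagen IV genes, which lie in head-to-head pairs that share a promoter region, followed their pairs in part. COL4A5 and COL4A6 on chromosome X rose together, by 1.24 ± 0.12 and 1.23 ± 0.15 (log2, SE). COL4A5 held 92.5, 109 and 104 CPM in control and 227, 221 and 277 CPM under palbociclib. COL4A1 on chromosome 13 fell by 1.00 ± 0.21, and its neighbour COL4A2 by 0.56 ± 0.18 (adjusted p = 0.0475). COL4A3 on chromosome 2 fell by 1.48 ± 0.35, with its neighbour COL4A4 at -0.36 ± 0.17 and not past the test. The COL4A2 call was close to the threshold and ended under 15 of 20 alternatives, among them those without control 2 (adjusted p = 0.142), control 3 (0.13), palbociclib 2 (0.0813), palbociclib 3 (0.103) or any 1 of the 3 BLU9931 and 3 combination libraries (0.0591 to 0.0679). The COL4A3 call ended with control 1 and palbociclib 3 left out (adjusted p = 0.0532). Of 29 collagen and laminin genes, 7 were called higher and 5 lower (median 0.17, with 11 higher and 4 lower without the 2 libraries).

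HOX genes, which carry positional identity, divided by cluster. In the HOXB cluster on chromosome 17, 6 of 8 tested genes were called higher and 0 lower (median 1.59). In the HOXA cluster 0 of 11 were called higher and 2 lower, in HOXC 0 of 9 and 2, and in HOXD 0 of 9 and 1. HOXB8 went from 0.819, 1.04 and 1.47 CPM to 4.996, 4.29 and 3.76 CPM (adjusted p = 0.00987), HOXB6 from 1.303, 1.56 and 1.02 CPM to 4.23, 4.92 and 2.42 CPM, and HOXB9 from 23.8, 25.0 and 23.7 CPM to 39.5, 44.1 and 34.4 CPM. None of these 3 overlapped between groups. HOXA13 fell by 1.26 ± 0.28, a call that ended in the 6 compared libraries alone (edgeR adjusted p = 0.0723). Without control 1 and palbociclib 3 the HOXB counts stayed at 6 and 0, HOXA had 1 higher and 2 lower, HOXC 0 and 2, and HOXD 0 and 0. The split by cluster was made after the values were seen, so it carries no test.

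Measured by the gain in mean CPM, the naming rule gave MT-RNR2, NKD1, IGFBP5, LAMC1, NOTUM and PSAP, in this order. MT-RNR2, a ribosomal RNA of the mitochondrial genome, went from 18875, 15957 and 14799 CPM to 21711, 20282 and 24896 CPM (adjusted p = 0.00975). The MT-RNR2 call ended in the 6 compared libraries alone (edgeR adjusted p = 0.0576). The NOTUM call ended under 4 of 20 alternatives, among them those without palbociclib 1 or palbociclib 2 (edgeR adjusted p = 0.0577 and 0.0504). IGFBP5, which binds insulin-like growth factors, rose from 961, 1095 and 1126 CPM to 3629, 3562 and 3081 CPM (adjusted p = 2.97e-06). The WNT feedback inhibitor gene NKD1 rose from 4390, 5220 and 5352 CPM to 8141, 8232 and 7280 CPM, and the laminin gene LAMC1 by 0.40 ± 0.07. DKK3, a secreted relative of the WNT antagonists, rose by 1.90 ± 0.14, while SFRP1 and the receptor gene FZD5 fell by 0.81 ± 0.13 and 0.85 ± 0.12. Of 33 WNT pathway genes, 4 were called higher and 3 lower (median 0.22, with 7 higher and 6 lower without the 2 libraries). The largest loss was that of YBX1, an RNA-binding protein gene, from 4064, 3554 and 3699 CPM to 2304, 2507 and 2370.5 CPM.

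Beyond the lists, the largest rise under the naming rule was that of SMPX, a small muscle protein gene, from 7.89, 5.61 and 5.32 CPM to 73.6, 71.8 and 123 CPM, 14.3-fold. RHBDL2, an intramembrane protease gene, rose from 0.893, 0.969 and 1.36 CPM to 7.71, 8.69 and 11.3 CPM, and TFF3, a mucosal trefoil peptide gene, by 2.90 ± 0.45. After FGF4, large falls were those of CAMK4, a calcium-dependent kinase gene, from 32.4, 21.6 and 23.2 CPM to 5.26, 4.76 and 6.14 CPM, and of the fucosyltransferase gene FUT9, by 2.34 ± 0.27.

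Among non-coding genes, MIR205HG, the host of a microRNA of basal epithelium, rose from 0.856, 1.00 and 0.935 CPM to 7.54, 9.05 and 7.48 CPM (adjusted p = 3.75e-06). The microRNA itself is not measured by its host. LINC01484 rose by 2.74 ± 0.21, and LINC02413 by 2.61 ± 0.21, with a transcript on the opposite strand, AC138123.2, whose reads cannot be told apart without strand. C2orf48 fell by 2.46 ± 0.19.

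Palbociclib was also set against BLU9931, which uses no control library and shares the palbociclib libraries with the comparison above. Here 3513 genes passed (17.0%), 1787 higher (8.67%) and 1726 lower (8.37%). Mitotic and replication lists were lower in this comparison too, with 31 of 38 spindle genes (median -0.87), 20 of 28 mitotic cyclins and kinases (median -0.83) and 20 of 31 licensing genes (median -0.71, 1 higher). BTG2 was at 34.5 CPM in the BLU9931 libraries (log2 difference 2.58, adjusted p = 3.89e-07) and CCND1 at 247 CPM (0.92, adjusted p = 2.86e-05).

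Growth and folding genes stood otherwise. Against BLU9931, 6 of 36 ribosome biogenesis genes were called lower (median -0.28), where 25 were lower against control (median -0.56), and 7 of 25 chaperone genes (median -0.26), where 20 were lower against control (median -0.58). HSP90AA1, the inducible HSP90, was at 1277 CPM in the BLU9931 libraries, 1034 CPM under palbociclib and 1963 CPM in control. The difference between these 2 comparisons was not tested. The difference between the effect of palbociclib with BLU9931 (combination against BLU9931) and without it was tested, and passed in 328 genes (1.59%). The interferon list had 13 of 29 higher and 1 lower against BLU9931 (median 0.56), and the quiescence list 11 of 27 higher and 4 lower (median 0.42).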

How the data were processed

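The deposited table gives, per gene and library, a read count, a TPM and an FPKM value, each named so per the file headers. How the authors made the counts is not given in the sources used here: StringTie 1.3.3b, HISAT2 2.0, Trimmomatic 0.36 and bedtools 2.26.0 are listed with no role per the submitters' processing notes, beside a mouse genome build, while the table holds human Ensembl IDs, of which 57836 of 58174 are in GENCODE 29. Positions are therefore on GRCh38. Counting mode and use of strand are not given. The TPM values made by the authors were used for markers and 1 alternative, and the FPKM values made by the authors were not used. The table has 0 columns of other samples.

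Counts were analysed with edgeR 4.0.16 in R 4.3.3: filterByExpr, TMM scaling, and 1 robust quasi-likelihood fit of the 12 libraries with a term per group (20612 genes). Calls are two-sided tests at a Benjamini-Hochberg adjusted p under 0.05 over all genes tested, and the SE is the log2 change over the square root of F. In counts simulated for palbociclib against control over 20612 genes, the test recovered 8% of genes changed 1.5-fold, 44% at 2-fold, 92% at 4-fold and 96% at 8-fold, with 3 false calls of 123. Only 50 genes were changed at each fold there, and no deviation by GC content was put in. These shares therefore do not give the recovery or the error in the real libraries. Libraries of a group differed by more than counting error (chi-square per degree of freedom of 49.3 in control and 59.3 under palbociclib).

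Alternatives were library totals, DESeq2 1.42.0, no filter on low counts, a GC adjustment (a spline per library), a replicate block, limma 3.58.1 on log2(TPM + 1), the 6 compared libraries alone, each library left out in turn, and control 1 with palbociclib 3 left out. With fewer libraries a group's spread is assumed to be like that of the others.

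The members and the 51 gene lists were chosen with earlier results of these data known, and lists were described by counts and medians with no set test. Named genes were a panel of D cyclins, CDK4, CDK6, RB1, CDKN1A, CDKN2C, E2F1, E2F2, E2F8, cyclin E, MKI67 and TOP2A; the 10 largest rises and falls among protein-coding genes called in the same direction with and without control 1 and palbociclib 3, reaching a mean of 5 CPM in control or palbociclib and with groups that do not overlap; the 6 largest gains and losses in CPM and the 4 largest rises and falls of other biotypes under the same conditions; and up to 2 called members per direction and list. Clone names were passed over. Other genes named were picked after their values were seen. Promoters came from RefSeq (GRCh38.p14), taking the first start listed for a gene. Summaries used pandas 2.3.3 and numpy 2.4.6, and figures matplotlib 3.10.9 (Python 3.11.15).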

Additional observations from a re-analysis of the deposited data

Results flagged for a closer look

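The effect of palbociclib was also measured in cells that had BLU9931, as the combination against BLU9931, and the difference between that effect and the effect against control was tested for 46 named genes with edgeR. It passed the threshold for 9, where 1.59% of all genes tested passed (328 genes). Of these 9, MKI67, TOP2A, E2F2, E2F8 and CDKN2C fell further with BLU9931 present. The difference in log2 effect was -2.46 ± 0.26 for MKI67 (SE, adjusted p = 0.000739), which held 1150 CPM in the BLU9931 libraries and 63.4 CPM in the combination, and -2.02 ± 0.23 for TOP2A (adjusted p = 0.000916). For E2F2 it was -1.63 ± 0.21, for E2F8 -2.06 ± 0.33 and for CDKN2C -1.99 ± 0.37 (adjusted p = 0.00264, 0.00851 and 0.0228).

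LPL also fell further with BLU9931 present, with a difference of -1.81 ± 0.26 (adjusted p = 0.00504). ZNF589 went the other way, at 2.19 ± 0.38 (adjusted p = 0.0155): it held 13.05 CPM in control and 2.89 CPM under palbociclib, but 10.998 CPM under BLU9931 and 11.1 CPM in the combination. HSPA8 fell from 1974 to 1202 CPM under palbociclib alone and stood at 1493 CPM under BLU9931 and 1433 CPM in the combination, a difference of 0.66 ± 0.10 (adjusted p = 0.00794). The mitochondrial ribosomal RNA gene MT-RNR2 stood at 16544 CPM in control, 22296 under palbociclib, 23320 under BLU9931 and 18923 in the combination, a difference of -0.73 ± 0.14 (adjusted p = 0.0248). These differences share the control and palbociclib libraries with the effect they are set against.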

How the results depend on the processing

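Of 250 named genes, 241 were called, and 171 of these passed under all 20 alternatives. Among the named genes the sign of the log2 change reversed for CDK4, at -0.067 with the GC adjustment, -0.11 with limma on TPM and -0.063 to 0.127 over single libraries left out, and for CCNE1, at -0.041 with the GC adjustment and -0.0019 to 0.0923 over single libraries left out. Neither was called. The 4236 calls became 7255 with the GC adjustment (4293 lower) and 1775 in the 6 libraries alone (952 higher, 823 lower), where fewer libraries estimate the spread. Changes of at least 2-fold numbered 863 with limma on TPM and 1130 in the 6 libraries. Against BLU9931 the calls were 6347 with the GC adjustment and 5492 without control 1 and palbociclib 3. For the effect with against without BLU9931 they were 818 with DESeq2, 1966 with the GC adjustment, 142 with the replicate block and 2087 without control 1 and palbociclib 3; the cause was not tested. Leaving out 1 library in turn gave 2936 to 5680 calls, 1458 to 2779 higher, 1466 to 2901 lower and 1396 to 2107 at least 2-fold, 2145 to 4077 against BLU9931 (2145, 2274 and 2172 without BLU9931 1, 2 and 3) and 146 to 975 for the effect with against without BLU9931 (975 without palbociclib 3).

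Same-numbered control and palbociclib libraries correlated at -0.33, 0.15 and -0.28 in their deviations from the group mean. Control 1 and palbociclib 3, whose deviations followed GC content, correlated at 0.42. With those deviations present, the correlations cannot tell whether libraries of the same number share a batch, which the labels do not state. The replicate block gave 3231 calls. Over the alternatives, called members ran from 24 to 37 for the spindle list, 17 to 27 for licensing, 8 to 21 lower for chaperones, 10 to 34 lower for ribosome biogenesis, 11 to 14 higher for quiescence and 9 to 16 higher for interferon genes. In simulated counts with 50 genes changed at each fold, 8% of those changed 1.5-fold were recovered. The simulation gave 123 calls and the data 4236, so its adjusted threshold was stricter. Its shares cannot be carried over to the data.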

Other observations

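AC012321.1, a gene known by a clone name and so passed over by the naming rule, had 731, 390 and 873 counts in palbociclib libraries 1, 2 and 3, and 1 count in each of the other 9 libraries, those of the combination included. It lies within NFAT5 on the same strand, whose levels of 89.5, 41.5 and 33.2 CPM in control and 77.5, 88.6 and 134 CPM under palbociclib overlapped (edgeR adjusted p = 0.0913), and with overlapping genes its value is uncertain. It was picked after its values were seen.

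RN7SL1 and RN7SL2, near-identical genes of the signal recognition particle RNA, which has no poly(A) tail of its own, rose from 11.2, 28.4 and 21.1 CPM to 103, 174 and 54.5 CPM and from 19.4, 48.9 and 28.3 CPM to 167, 280.4 and 106 CPM (edgeR adjusted p = 0.00508 and 0.00313). Reads may be split between them. Among the 22 mitochondrial transfer RNA genes tested, 6 were called lower and 0 higher, with MT-TS2 at -1.30 ± 0.20 and MT-TL2 at -1.28 ± 0.19 (log2, SE). LYZ and VWF, markers of leukocytes and endothelium, were called higher from means of 0.297 and 0.0382 TPM to 2.01 and 0.361 TPM, while PTPRC was listed at 0 and PECAM1 did not exceed 0.0425 TPM.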
